A study of Mus musculus with 8 samples.

Results

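The integrin and laminin genes were followed across CT26 tumors under 4 treatments. Integrins are cell-surface receptors made of an alpha and a beta chain, and laminins are the cross-shaped proteins, each of an alpha, a beta and a gamma chain, that build basement membranes. Members were taken by gene name, from the non-control probes that the array annotation names as an integrin alpha or beta chain or as a laminin alpha, beta or gamma chain. Described here are 36 genes with 92 probes, out of 37074 gene names and 56605 probes on the array. The genes comprised 18 integrin alpha chains, 8 integrin beta chains and 10 laminin chains. Tests were limited to probes that stood well above background on both arrays of some group, which 55 member probes did, covering 31 of the 36 genes. The 5 genes without a tested probe were Itgad, Itgb6, Lama1, Lamb3 and Lamc3.

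CT26 cells, a line derived from a BALB/c colon carcinoma, were implanted under the skin of the flank, 500000 per mouse, and grew into tumors. Mice that carried a tumor received vehicle, TP-16 by mouth every day at 75 mg/kg, an anti-PD-1 antibody into the peritoneum at 50 µg per mouse with 2 doses a week, or the combination of both agents, each for 2 weeks. TP-16 (BY001 in the labels) blocks the prostaglandin E2 receptor EP4. The antibody targets PD-1, a brake on T cells. The methods describe female BALB/c mice a few weeks of age, and do not say whether vehicle mice also received an isotype antibody for this experiment. RNA of whole tumors was hybridised to 1-colour Agilent arrays, 2 per group and 8 in all, and the sources used here do not say whether a sample was 1 tumor or a pool. Of 10 markers of colon epithelium, 5 were well above background on all 8 arrays and Vil1 on none.

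Values are log2 spot intensities relative to the 75th percentile of the same array, so that 0 is that percentile and 1 unit is a 2-fold difference. Probes differ in how brightly they bind, so levels are compared between groups for 1 probe and not between genes. The summed levels of marker lists add linear intensities over the genes of a list, so that the brightest probes weigh most. These sums are compared between groups only. A gene is given by its tested probe with the highest mean over the 8 arrays. Groups were compared in 1 limma fit over all 31912 tested probes, with Benjamini-Hochberg adjustment over all of them. A gene is said to have risen or fallen where its level changed 2-fold or more with an adjusted p of 0.05 or less, and the methods' threshold is the same fold with an unadjusted p of 0.05 or less. The 75th percentile of intensity, by which each array was scaled, ran from 574.9 to 632.3 on the 4 arrays without TP-16 and from 813.8 to 1124 on the 4 with it, and 51.4% to 59.7% of probes were well above background. Replicate arrays differed, over tested probes, with an SD that ran from 0.417 in the combination to 0.675 in vehicle. Among the 31 member genes the largest such difference was 5.63, for Itga2 in the anti-PD-1 group, and 2.43, for Itgam, in the vehicle group. With 2 arrays a group, precision is limited by their number.

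Integrins tie cells to matrix and to each other. Leukocytes carry a set of their own, built on the beta chains Itgb2 and Itgb7 and on Itga4, that lets them stop on vessel walls, enter tissue and hold on to target cells. Many other alpha chains pair with Itgb1, while Itgav pairs with several beta chains, and these receptors read collagen, laminin, fibronectin and other matrix proteins, mostly on fibroblasts, muscle, vessels and epithelium, while laminins are laid down beneath epithelium and around vessels, muscle and nerve.

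The combination was set against vehicle first, since it gave most calls. Of 7 tested leukocyte integrin genes 5 rose, and the brighter probe of the collagen-receptor chain Itga11 rose most of the members. The collagen-receptor chain Itga1 had probes that moved in opposite directions, and by its brightest probe it is counted as the 1 member that fell. In all, 7 of 31 member genes rose after adjustment, against 5.7% of the 21497 genes tested, and 1 fell, against 8.2%. At any fold 15 member genes had an unadjusted p of at most 0.05, against 49.4% of all genes, and 9 an adjusted p of at most 0.05, against 34.5%. At the methods' threshold 9 were higher, against 6.81% of genes, and 1 was lower, against 9.99%. The 9 include Itgb8, which entered the test only through the combination arrays, where it is high. The median log2 fold change was 0.34 over the member genes and -0.22 over all genes tested. By family, 7 of 24 integrin genes rose and 1 fell, and 0 of 7 laminin genes passed. In the fit without combination replicate 2, 0 member genes passed after adjustment and 8 passed the methods' threshold, and in a fit of the combination and vehicle arrays alone 0 passed after adjustment and 10 the methods' threshold. With the t-test of the methods 0 passed after adjustment and 5 passed their threshold. Itgae, Itga4 and Itga9 no longer passed without vehicle replicate 1, Itga9 and Itga1 without vehicle replicate 2, and Itgax and Itga1 without combination replicate 1. Itga9 no longer passed with normexp background correction (log2 0.97, under the fold of 2) or with no filter on dim probes (adjusted p = 0.0506), nor did Itga4 with no filter (adjusted p = 0.0522).

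**Figure D1:**
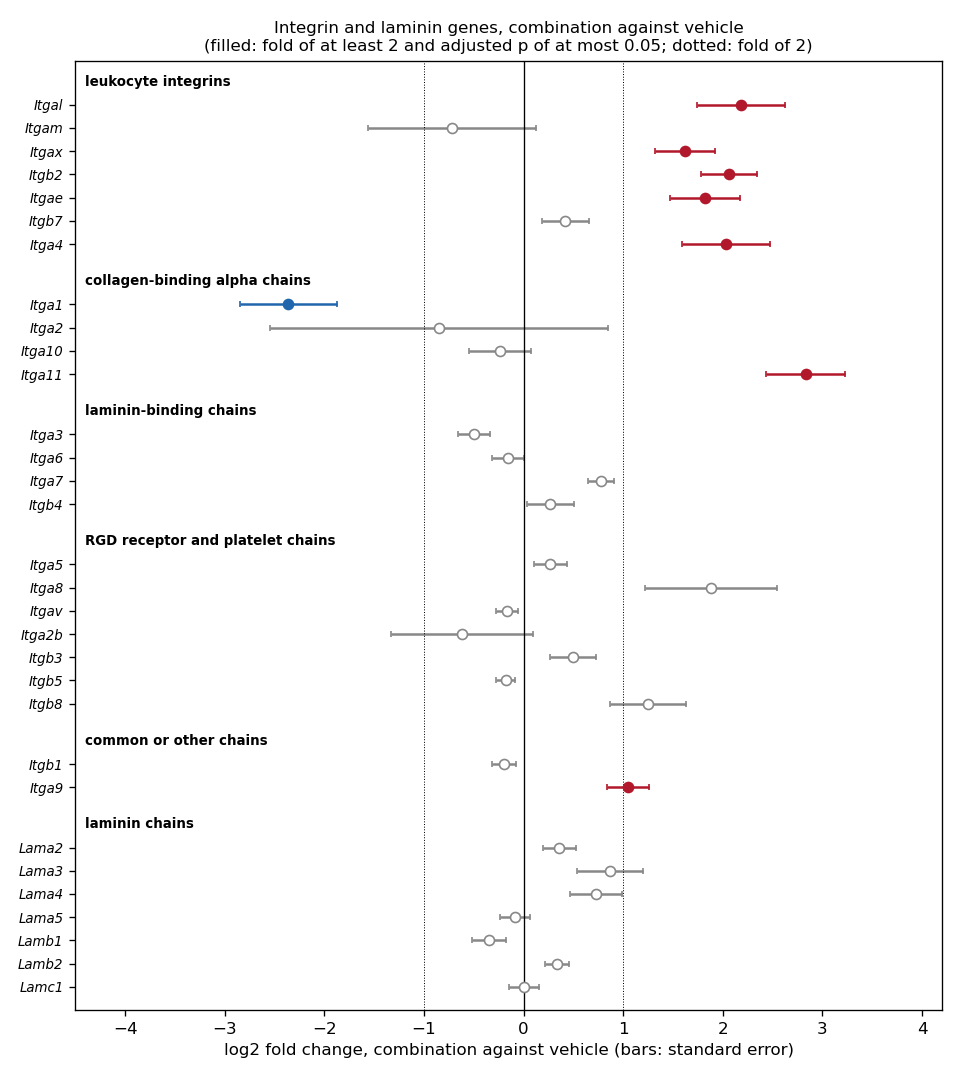
Log2 fold change of the 31 tested integrin and laminin genes in the combination against vehicle (horizontal axis, points, with the standard error as bars), ordered by role. Filled points mark the 7 genes that rose and the 1 that fell after adjustment (Itga1, by the probe nearer the gene start), and the dotted lines mark a fold of 2. Itga11 lies farthest to the right at 2.83 and Itga1 farthest to the left at -2.36.

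Of the 8 leukocyte integrin genes 7 were tested, and 5 of them rose in the combination, with a median log2 fold change of 1.82 over the 7. Itgal (CD11a) is the alpha chain of LFA-1, with which T cells bind their partners through ICAM-1. It stood at -2.38 and -1.30 in vehicle, -0.26 and -0.95 in TP-16, -0.58 and -1.12 in anti-PD-1, and 0.08 and 0.60 in the combination. Both combination arrays were above the other 6, and both arrays of each single agent were above both vehicle arrays. Its level rose 4.54-fold in the combination (log2 2.18, SE 0.44, adjusted p = 0.0196, limma). The dimmer Itgal probes gave 0.99 (adjusted p = 0.0565) and 1.20 (adjusted p = 0.0286).

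Itgax (CD11c) is the alpha chain best known from dendritic cells, which also occurs on macrophages. It stood at -0.71 and 0.07 in vehicle, 1.02 and 0.47 in TP-16, 0.09 and -0.13 in anti-PD-1, and 1.28 and 1.33 in the combination. The combination arrays were the highest and the anti-PD-1 arrays overlapped vehicle. The rise in the combination was 3.08-fold (log2 1.62, SE 0.30, adjusted p = 0.0159).

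Itgb2 (CD18) is the beta chain that Itgal, Itgam, Itgax and Itgad share. It stood at 0.77 and 1.39 in vehicle, 2.09 and 1.80 in TP-16, 2.19 and 1.79 in anti-PD-1, and 2.92 and 3.36 in the combination. The groups formed 3 levels without overlap, with vehicle lowest, both single agents between, and the combination highest. It rose 4.17-fold in the combination (log2 2.06, SE 0.28, adjusted p = 0.0112).

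Itgam (CD11b), the alpha chain of the complement receptor on neutrophils, monocytes and macrophages, did not pass. It stood at 4.33 and 1.91 in vehicle, 2.77 and 1.64 in TP-16, 2.92 and 3.52 in anti-PD-1, and 2.80 and 2.01 in the combination. The vehicle arrays lay apart from each other and all other values fell between them except 1 TP-16 array. The difference in the combination was -0.72 (SE 0.84, adjusted p = 0.54), and the second Itgam probe gave -0.38. Itgad, the remaining partner of Itgb2, was well above background on 0 arrays with either probe.

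**Figure D2:**
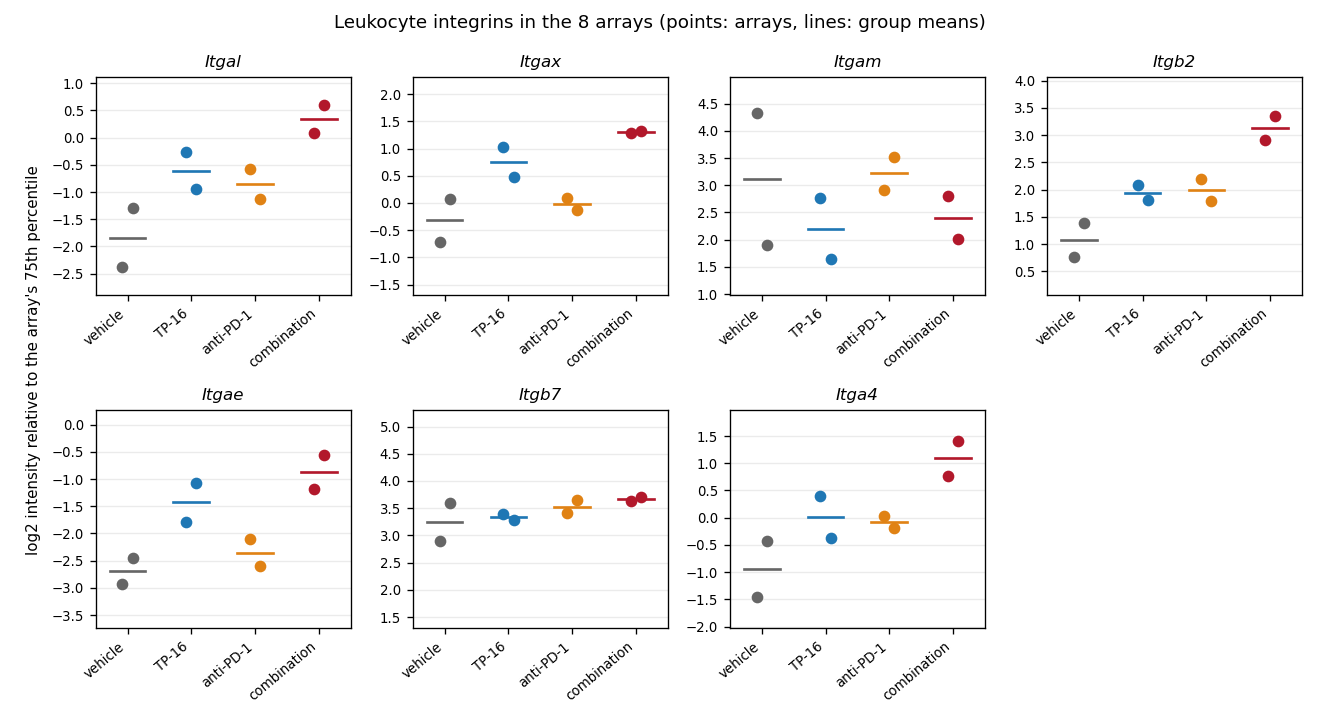
Log2 intensity of the 7 tested leukocyte integrin genes relative to the 75th percentile of the array (vertical axis, each panel spanning 4 log2 units) in the 4 treatment groups, with 1 point per array and a line at the group mean. The combination arrays are the highest for Itgal, Itgax, Itgb2 and Itga4, the vehicle arrays of Itgam lie 2.43 apart, and Itgb7 differs little between groups.

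Itgae (CD103) pairs with Itgb7 to bind E-cadherin and marks T cells and dendritic cells that reside in epithelium. It stood at -2.92 and -2.45 in vehicle, -1.78 and -1.08 in TP-16, -2.11 and -2.60 in anti-PD-1, and -1.19 and -0.55 in the combination. The TP-16 and combination arrays were all above the vehicle and anti-PD-1 arrays. It rose 3.52-fold in the combination (log2 1.82, SE 0.35, adjusted p = 0.0178). A second Itgae probe was not well above background on either vehicle array and was at least 1.45-fold higher in the combination (adjusted p = 0.0171), a bound taken against the dimmest signal that counts as above background. That probe entered the test only through the TP-16 and combination arrays, where it is high, and the value is a description.

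Itga4 (CD49d) pairs with Itgb1 or Itgb7 and binds VCAM-1, by which lymphocytes and monocytes leave the blood. It stood at -1.46 and -0.42 in vehicle, 0.40 and -0.37 in TP-16, 0.04 and -0.19 in anti-PD-1, and 0.77 and 1.41 in the combination. The combination arrays were above all others. Itga4 rose 4.07-fold (log2 2.03, SE 0.44, adjusted p = 0.0225), while a dimmer probe, designed to another transcript and well above background on 6 arrays, gave -0.04. Itgb7, the beta chain of Itgae and of the gut-homing receptor, stood at 2.90 and 3.60 in vehicle and at 3.64 and 3.70 in the combination, a difference of 0.42.

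The genes of these chains lie in part side by side. Itgal spans chr7:127296139-127335137, Itgam chr7:128062640-128118491, Itgax chr7:128129526-128150657 and Itgad chr7:128173933-128205504 in GRCm38.p6. Promoter sequences from RefSeq were at hand for 23 of the 36 genes. Those of the 3 leukocyte alpha chains among them are shown because Itgax and Itga4 rose and the neighbour of Itgax, Itgam, did not. Each is the 250 bases before a transcription start, 5′ to 3′ on the plus strand, at chr7:128129300-128129549 for Itgax, chr7:128062390-128062639 for Itgam and chr2:79255176-79255425 for Itga4. The end of the Itgax window lies within the RefSeq span of the gene. Capitals mark the motifs GGAAGT and GAGGAAG on either strand, which hold the GGAA core that ETS factors such as PU.1 of myeloid cells bind, and which can overlap each other.
Itgax promoter: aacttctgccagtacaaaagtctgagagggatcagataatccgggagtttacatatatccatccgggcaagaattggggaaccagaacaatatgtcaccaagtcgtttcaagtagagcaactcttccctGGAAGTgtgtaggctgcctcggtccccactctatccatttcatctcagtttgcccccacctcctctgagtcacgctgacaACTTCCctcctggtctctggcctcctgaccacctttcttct
Itgam promoter: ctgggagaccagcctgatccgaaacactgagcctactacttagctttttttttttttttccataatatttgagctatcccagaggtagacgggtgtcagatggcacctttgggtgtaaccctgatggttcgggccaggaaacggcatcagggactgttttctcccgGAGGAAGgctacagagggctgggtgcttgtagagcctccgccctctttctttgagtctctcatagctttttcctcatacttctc
Itga4 promoter: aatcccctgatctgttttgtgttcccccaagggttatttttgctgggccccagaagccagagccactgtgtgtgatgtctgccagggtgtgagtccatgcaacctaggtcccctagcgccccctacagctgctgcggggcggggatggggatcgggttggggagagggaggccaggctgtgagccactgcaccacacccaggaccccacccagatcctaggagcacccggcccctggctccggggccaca
GGAAGT occurred in the Itgax window 121 to 116 bases before the start on the plus strand and 41 to 36 bases before it on the minus strand, and GAGGAAG in the Itgam window 84 to 78 bases before the start on the plus strand. The Itga4 window held neither. Over all 32851 promoters, 19.7% held GGAAGT and 10.6% held GAGGAAG, and of the 23 member genes 8 and 7 did. A member gene was counted if any of its promoters held the motif, so that these counts of genes and the shares of promoters are unlike units. These are matches of letters and not sites of binding.

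Tumor RNA comes from many cell types, so that fewer cells of a type and less RNA per cell cannot be told apart here. Leukocyte markers moved in both directions, depending on the list. Of 10 T cell markers 3 rose in the combination and 0 fell, and their summed level ran from 13.1 to 22.3 in vehicle and from 34.8 to 53.2 in the combination. The brightest of the 10, Thy1, weighs most in that sum and is also on the fibroblast list. It stood at 3.12 and 3.58 in vehicle and 4.07 and 4.55 in the combination, a difference of 0.96, under the fold of 2. Of 10 macrophage markers 6 rose (109 to 146 in vehicle, 191 to 268 in the combination). Of 9 dendritic cell markers 5 rose and 8 differed by more than 0, though their summed level was 30.7 to 42.3 in vehicle and 23 to 28.7 in the combination. That sum is weighted to bright probes and does not stand for the list. Among the 5, Clec9a and Zbtb46 were well above background on neither vehicle array. Both entered the test through the treated groups, where they are high. Of 6 NK cell markers 2 rose, with 5.67 and 25.4 in the vehicle arrays against 27.4 and 28.3 in the combination. That sum is mostly Gzma, the brightest of the 6, which did not pass (adjusted p = 0.246, limma). Gzma stood at 2.37 and 4.55 in vehicle and 4.64 and 4.47 in the combination. Of 9 neutrophil markers 0 rose and 2 fell, S100a8 and S100a9, and of 6 B cell markers 3 fell, among them Pax5, which entered the test only through the vehicle arrays. The summed level of 10 neutrophil markers was 69.6 to 75.7 in vehicle and 37.2 to 46.5 in the combination, and Ngp was not well above background on any array. Over all genes 5.7% rose and 8.2% fell in the combination, and the counts of every marker list stand beside these shares. How far these markers account for the integrin values was not tested.

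Of the 4 alpha chains that form collagen receptors with Itgb1, Itga11 rose by its brighter probe and Itga1 fell by its brightest probe, and in both genes another probe gave the opposite sign. Itga11, a receptor for fibrillar collagen found on fibroblasts, stood at -2.99 and -3.16 in vehicle, -1.33 and -2.59 in TP-16, -1.28 and -1.71 in anti-PD-1, and at -0.24 on both combination arrays. Both combination arrays were above all others and both vehicle arrays below all others. The rise of 7.13-fold was the largest among the members (log2 2.83, SE 0.40, adjusted p = 0.0114). A second Itga11 probe, at chr9:62624723-62624782 in mm9 and dimmer, well above background on 6 arrays, gave -0.55 (adjusted p = 0.567) where the first, at chr9:62631667-62631726, had risen.

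Itga1, the receptor chain for collagen IV of basement membranes that is also carried by resident T cells and muscle of vessels, stood at -1.19 and -0.52 in vehicle, -2.61 and -3.60 in TP-16, -0.94 and -1.99 in anti-PD-1, and -3.03 and -3.41 in the combination. All TP-16 and combination arrays were below all vehicle and anti-PD-1 arrays. It fell by 2.36 on the log2 scale in the combination (SE 0.49, adjusted p = 0.0203), to 0.195 of the vehicle level. That value is of the probe nearer the start of the gene, at chr13:115821387-115825525 in mm9 on the minus strand. A probe nearer the end of the gene, at chr13:115756765-115758419, was measured on all 8 arrays too and moved the other way, with -2.71 and -2.84 in vehicle, -2.45 and -2.82 in TP-16, -2.49 and -2.48 in anti-PD-1, and -2.16 and -1.59 in the combination. The combination arrays were the highest, and the difference was 0.90 (SE 0.22, adjusted p = 0.0313), under the fold of 2. Another Itga1 probe, taken from a cDNA clone and well above background on 3 arrays, was at least 2.46-fold lower in the combination than in vehicle (adjusted p = 0.13). It entered the test only through the vehicle arrays, where it is high, and the value is a description. Both of the brighter probes cover 60 bases split over more than 1 exon, since their spans in the genome are 4139 and 1655 bases, and the array files assign them to the same transcript. The first 30 bases of each are shown because they give opposite directions for 1 gene, in lower case as no part is marked.
Itga1 probe nearer the gene start: ttgggagagagagatcaatgccttgtgtga
Itga1 probe nearer the gene end: tcataaaagcacatttttccagcttaaatc
No direction for the gene as a whole can be read from these values, and which transcripts the probes bind was not tested.

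**Figure D3:**
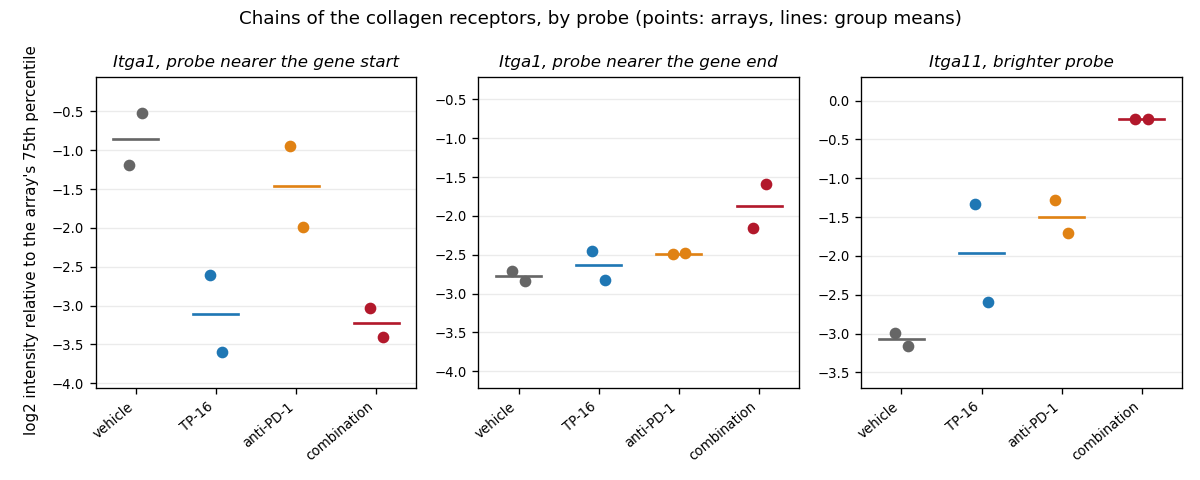
Log2 intensity relative to the 75th percentile of the array (vertical axis, each panel spanning 4 log2 units) of the 2 Itga1 probes measured on all 8 arrays and of the brighter Itga11 probe, by treatment group, with 1 point per array and a line at the group mean. The Itga1 probe nearer the gene start is lowest in TP-16 and the combination, the one nearer the gene end is highest in the combination, and Itga11 is highest in the combination at -0.24 on both arrays.

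Itga2 and Itga10, the other collagen-receptor chains, did not pass. Itga2, the receptor of platelets and epithelium, ranged from -7.20 to -1.57, both on anti-PD-1 arrays, and Itga10, a chain of cartilage, differed by -0.24 in the combination. Of 10 fibroblast markers 3 rose in the combination, against 5.7% of all genes (Col1a1 at 1.97, Col3a1 at 1.32 and Pdgfra at 1.24). Their summed level ran from 170 to 192 in vehicle and from 322 to 344 in the combination. With TP-16, where the brighter Itga11 probe was 1.11 higher, 5 of the 10 were above 0, with a median of 0.03. With anti-PD-1, where that probe was 1.58 higher, all 10 were above 0, with a median of 0.44. Of 11 markers of pericytes and smooth muscle 0 rose and 1 fell, with sums of 21.7 to 29.2 in vehicle and 31.1 to 38.5 in the combination. Their part in the values of Itga11 and Itga1 was not tested.

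Itga9 pairs with Itgb1 and binds tenascin and VCAM-1 on neutrophils, muscle and lymphatic vessels. It stood at -0.33 and -0.23 in vehicle, -0.18 and -0.69 in TP-16, -0.15 and -0.34 in anti-PD-1, and 0.60 and 0.94 in the combination. The 3 other groups overlapped and the combination arrays were above all of them. Itga9 rose 2.07-fold in the combination (log2 1.05, SE 0.21, adjusted p = 0.0191), close to the fold of 2, and its second probe gave 0.91 (adjusted p = 0.0807). Itgb1, the partner of most of these alpha chains, differed by -0.20.

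None of the 4 laminin-binding integrin chains passed. Itga7, the laminin receptor of muscle, was 1.72-fold higher in the combination with adjusted p = 0.0132, under the fold of 2. Itga3, the epithelial receptor, differed by -0.50 (adjusted p = 0.0591), Itga6 by -0.16 and its partner in hemidesmosomes, Itgb4, by 0.27. Among the chains of fibronectin and other RGD receptors and of platelets, 0 of 7 tested genes passed after adjustment. Itga8, a chain of smooth muscle and kidney mesenchyme, was not well above background on either vehicle array and was at least 2.52-fold higher in the combination (adjusted p = 0.0766), and over 18 alternatives it passed in 4, with log2 fold changes from 0.33 with normexp background correction to 2.61 with quantile normalization. Itgb8, which with Itgav activates TGF-beta, gave 1.25 (adjusted p = 0.0527) from a probe well above background on both combination arrays and 1 further array, so that no bound on its fold could be given, and -0.36 with normexp background correction. The fibronectin receptor chain Itga5 differed by 0.27, the shared chain Itgav by -0.17, the platelet chain Itga2b by -0.62, and Itgb3 and Itgb5, partners of Itgav, by 0.50 and -0.18. A dimmer probe had the opposite sign for Itgb3 (-0.49) and for Itga3 (0.05). Dimmer Itgav probes gave -1 (adjusted p = 0.0563, limma) and -0.55 (adjusted p = 0.0942, limma). Fits on other scalings turned the sign of the small differences of Itga6, Itgb1 and Itgb5.

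None of the 7 tested laminin genes passed after adjustment or at the methods' threshold, and their differences between the combination and vehicle ran from -0.35 to 0.87 with a median of 0.34. Lama3, the alpha chain of the laminin that anchors epithelium, was the highest of these at 0.87 (adjusted p = 0.0923), and its partner Lamb3 had no tested probe. Of 10 epidermis markers 5 were tested and 0 passed, with sums of 5.7 to 6.58 in vehicle, 5.25 and 23.3 in TP-16, 5.38 and 24.4 in anti-PD-1, and 5.41 to 5.51 in the combination. The high sums were those of TP-16 replicate 2 and anti-PD-1 replicate 2, where Krt14 stood at 3.17 and 3.61, and Lama3 was the higher of its group on both, at -2.38 and -2.16. Their part in the laminin values was not tested. Of 8 tested colon epithelium markers 2 fell, Krt18 at -1.38 and Cldn4, which was well above background on the 2 vehicle arrays alone and entered the test through them.

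Lama4, the alpha chain of vessel and muscle laminins, stood at -0.28 and -0.64 in vehicle, -0.42 and -1.02 in TP-16, -0.51 and -0.73 in anti-PD-1, and 0.06 and 0.49 in the combination. The combination arrays were above all others, yet the difference from vehicle was 0.73 (SE 0.26, adjusted p = 0.0823). Lama2 of muscle and nerve differed by 0.36, Lama5 of vessel and epithelium by -0.09, Lamb1 by -0.35, Lamb2 by 0.34 and Lamc1, the gamma chain of most laminins, by 0.00, with signs for Lama5 and Lamc1 that changed between scalings. A further Lamc1 probe differed by -0.55 (adjusted p = 0.0275), under the fold of 2. Of 10 endothelial markers 0 passed, with sums of 23.1 to 24.5 in vehicle and 19.6 to 25.8 in the combination. The sums were 11.8 to 18.2 in TP-16 and 17.2 to 20.5 in anti-PD-1, and all 10 of these markers were higher in the combination than in either single agent, with medians of 0.84 against TP-16 and 0.52 against anti-PD-1.

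**Figure D4:**
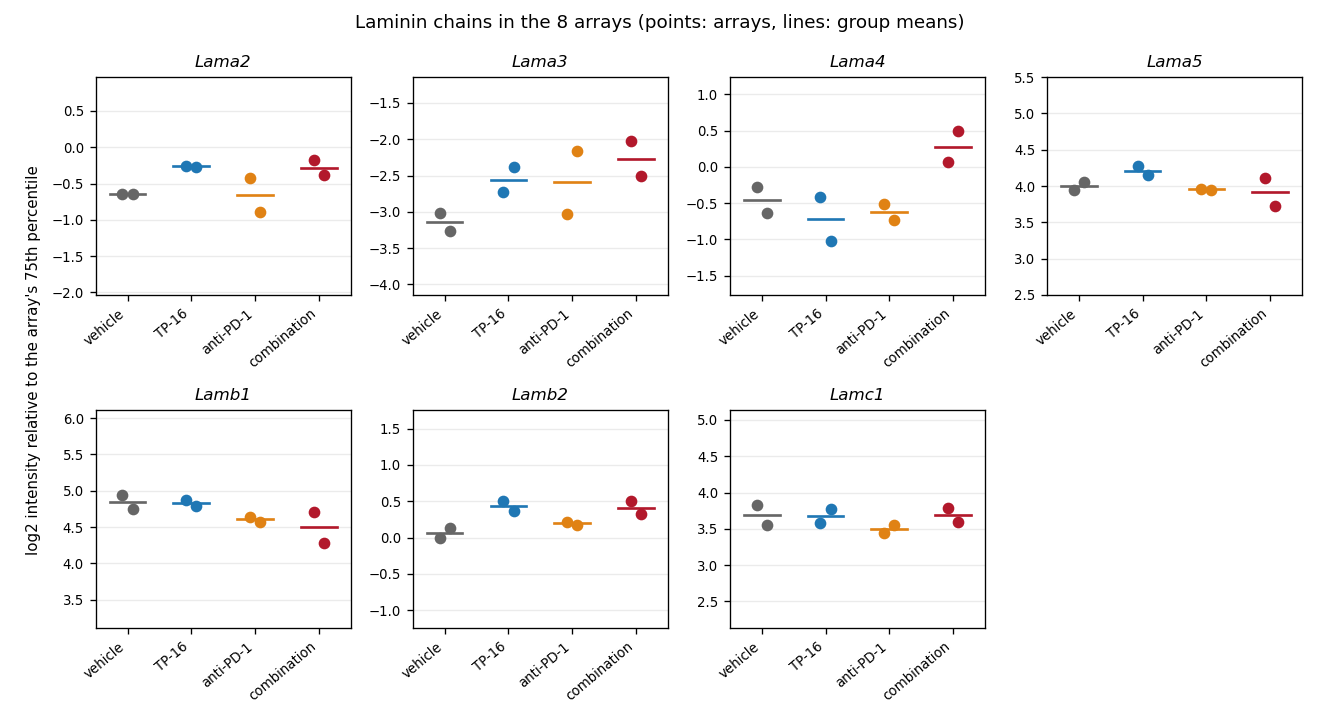
Log2 intensity of the 7 tested laminin genes relative to the 75th percentile of the array (vertical axis, each panel spanning 3 log2 units) in the 4 treatment groups, with 1 point per array and a line at the group mean. The combination arrays lie above all others for Lama4, from 0.06 to 0.49.

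Single agents were compared with the same vehicle arrays, so the comparisons are not independent of each other. In limma 0 member genes passed after adjustment with either agent, while 7 of 31 with TP-16, against 27.3% of all genes, and 5 with the antibody, against 14.7%, had an unadjusted p of at most 0.05 at any fold. At the methods' threshold TP-16 gave 4 higher member genes, against 1.59% of all genes, and 1 lower, against 4.96%. The 4 were Itgae at 1.25 (adjusted p = 0.118), Itgal at 1.24 (adjusted p = 0.163), Itga11 at 1.11 (adjusted p = 0.166) and Itgax at 1.06 (adjusted p = 0.117), and the lower one was Itga1 at -2.25 (adjusted p = 0.0983), with the probe nearer the gene start. Anti-PD-1 gave 1 higher member gene, Itga11 at 1.58 (adjusted p = 0.268), against 1.96% of all genes, and 0 lower, against 2.18%. Itgb2 was just under the fold of 2 in both, at 0.87 (adjusted p = 0.14) with TP-16 and 0.91 (adjusted p = 0.301) with anti-PD-1. The TP-16 count of 5 became 3 without vehicle replicate 1 or without TP-16 replicate 1, 1 with normexp background correction and 1 with the t-test of the methods. The anti-PD-1 count of 1 became 3 and 4 without vehicle replicates 1 and 2, 2 and 3 without anti-PD-1 replicates 1 and 2, and 0 with normexp.

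The combination was then set against each agent alone, which asks what the second agent added. After adjustment 0 member genes passed in either comparison, and 8 against TP-16, beside 23% of all genes, and 10 against anti-PD-1, beside 28.7%, had an unadjusted p of at most 0.05 at any fold. Against TP-16, 3 member genes were higher at the methods' threshold, against 4.04% of all genes, and 0 were lower, against 0.861%. They were Itga11 at 1.72 (adjusted p = 0.138), Itga9 at 1.20 (adjusted p = 0.116) and Itgb2 at 1.19 (adjusted p = 0.138), and Lama4 lay just under the fold of 2 with an adjusted p of 0.147. Without TP-16 replicate 1 the 3 became 6, and with a fit of the compared arrays alone 5. Against anti-PD-1, 7 were higher, against 2.46% of all genes, and 1 was lower, against 2.31%. The 7 were Itgae at 1.49, Itgax at 1.32, Itga11 at 1.25, Itgal at 1.19, Itga4 at 1.16, Itgb2 at 1.15 and Itga9 at 1.01, with adjusted p from 0.0784 to 0.173, and the lower one was Itga1 at -1.75 (adjusted p = 0.109) with the probe nearer the gene start, where the probe nearer the gene end gave 0.61 (adjusted p = 0.165). These 8 fell to 2 without combination replicate 2, 4 without anti-PD-1 replicate 2 and 3 with the methods' t-test.

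The departure from additivity, the combination minus both single-agent effects on the log2 scale, was tested in the same fit. After adjustment 0 members passed, and 2 were above additivity at the methods' threshold, against 2.77% of all genes, with 0 below, against 0.488%. Itga9 departed by 1.17 (SE 0.30, adjusted p = 0.528) and Lama4 by 1.16 (SE 0.37, adjusted p = 0.596). Endothelial markers moved with Lama4, as 6 of 10 were above additivity at the methods' threshold, 0 after adjustment, with a median of 1.06 and a range of 0.71 to 2.72. The basement membrane genes Nid2 and Col4a1 departed by 1.49 and 1.07 (adjusted p = 0.41 and 0.436). Their part in the value of Lama4 was not tested. For Itga11 and the 5 leukocyte integrins that rose, the departure did not reach the methods' threshold. Without combination replicate 2 or without TP-16 replicate 2, 0 members passed.

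The partners of integrins inside and outside the cell were followed by lists of named genes. Of 34 tested adaptors and kinases of integrin adhesions 6 rose in the combination and 0 fell, with a list median of 0.08. Over all genes 5.7% rose, 8.2% fell and the median was -0.22, and the counts of the lists that follow stand beside the same shares. The 4 largest were Ptk2b (the kinase Pyk2 of leukocytes) at 1.72 (adjusted p = 0.0218), Parvg (the parvin of blood cells) at 1.62 (adjusted p = 0.0123), Syk (a kinase below integrins and immune receptors) at 1.59 (adjusted p = 0.0114) and Zyx (zyxin, an actin-linked adhesion protein) at 1.34 (adjusted p = 0.0123). Ptk2b stood at 0.97 and 1.98 in vehicle and 3.04 and 3.37 in the combination, and Syk at 0.06 and 0.32 in vehicle and 1.5 and 2.06 in the combination. Fermt3, the kindlin of blood cells that switches Itgb2 receptors on, rose by 1.24 (adjusted p = 0.0494), and Tns4, a tensin, by 1.19 (adjusted p = 0.0159).

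Of 24 tested ligands and counter-receptors 3 rose, against 5.7% of all genes, and 2 fell, a share near the 8.2% of all genes, with a list median of 0.12. Icam1, the ligand of the Itgal and Itgam receptors, stood at -0.17 and 0.77 in vehicle and 1.95 and 2.60 in the combination, a rise of 1.98 (adjusted p = 0.0163). Postn (periostin, a matrix protein of fibroblasts bound by Itgav receptors) stood at 1.05 and 0.34 in vehicle and 2.50 and 2.89 in the combination, a rise of 2.00 (adjusted p = 0.0121). Vwf, the adhesive protein of endothelium and platelets, rose by 1.55 (adjusted p = 0.0454). The fibrinogen chains Fga and Fgb were not well above background on either combination array, and were at least 2.4-fold and 2.47-fold lower there than in vehicle (adjusted p = 0.0186 and 0.0112). Both entered the test only because both vehicle arrays, where they are high, stood above background, so that these are given as levels and not as support for a fall of the list. Under the fold of 2, Vcam1, the ligand of Itga4, was 0.70 higher (adjusted p = 0.012), Tnc, Thbs2 and Jam3 were 0.62, 0.98 and 0.87 higher (adjusted p = 0.0272, 0.0434 and 0.0399), and Spp1 (osteopontin, a ligand of Itgav and Itga9 receptors) differed by -0.92 (adjusted p = 0.0164).

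Of 14 tested basement membrane partners of laminin, such as nidogen, perlecan and collagen IV, 1 rose, a share near the 5.7% of all genes, the matrix protein Smoc2 at 1.25 (adjusted p = 0.0283), 0 fell, and the list median was 0.32. Of 17 other laminin receptors and tetraspanins, with a median of -0.04, Dmd (dystrophin, the link between dystroglycan and actin) was not well above background on either vehicle array and was at least 1.47-fold higher in the combination (adjusted p = 0.0112). It entered the test only through the combination arrays, where it is high, and the value is a description. Rpsa, a ribosomal protein also described as a laminin receptor, fell by 1.13 (adjusted p = 0.0112).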

How the data were processed

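Total RNA of 8 CT26 tumor samples in 4 groups, assigned from the labels, was measured on 1-colour arrays. The authors deposited the scanner output of Agilent Feature Extraction 10.7.1.1, with spot intensity already background-subtracted and detrended, and a table of log2 values normalized in GeneSpring by a method not named. Here 38 probes with outlier spots were left out, spots of a probe averaged, and log2 intensity taken minus the 75th percentile over non-control spots. Fits used limma 3.58.1 in R 4.3.3, 1 mean per group, 4 residual degrees of freedom and no block. All arrays lay on 1 slide read in 1 scan. Slide row and antibody cannot be told apart, nor can slide column and TP-16. One gene that the naming rule takes is not reported here. Full values were given for members called after adjustment in the combination against vehicle, or at the methods' threshold in another comparison. The members and gene lists were chosen with earlier results of these data known. Symbols are those of the array and probe positions its mm9 annotation. Alternatives were quantile normalization, normexp with an offset of 50, 2 other probe filters, all probes counted singly, a replicate block, the authors' log2 values, fits of the compared groups alone, a trended robust fit, a fold of 1.5, the t-test of the methods, leaving out each array and, chosen after seeing the data, the percentile over probes. Scripts were tested on simulated data. Lists were T, NK, B and dendritic cells, macrophages, neutrophils, platelets, endothelium, pericytes, fibroblasts, epidermis, colon epithelium, muscle, nerve, adipose tissue, red cells and cell division.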

Additional observations from a re-analysis of the deposited data

Results flagged for a closer look

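For 2 members the combination departed from the sum of both single-agent effects at the methods' threshold, and neither passed after adjustment over all probes. Itga9 departed by 1.17 on the log2 scale (unadjusted p = 0.00824, adjusted p = 0.528, limma), and both combination arrays were above the other 6. Lama4 departed by 1.16 (unadjusted p = 0.0217, adjusted p = 0.596, limma), and both combination arrays were again above the other 6. Without combination replicate 2, or without TP-16 replicate 2, neither reached that threshold. Endothelial markers departed in the same direction as Lama4, in 10 of 10, with a median of 1.06.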

How the results depend on the processing

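Counts of member genes past a threshold moved with the processing as follows, and where no cause is named it was not tested. After adjustment in the combination against vehicle, the count of 8 became 0 with only the compared groups in the fit and 0 with the methods' t-test, 7 with normexp and 6 with no filter on dim probes, and ran from 0 to 9 when single arrays were left out, the 0 without combination replicate 2. At the methods' threshold the combination against vehicle gave 5 with the methods' t-test against 10, TP-16 against vehicle gave 1 with that test and 1 with normexp against 5, and anti-PD-1 against vehicle gave 0 with normexp and 3 with quantile normalization, with the authors' log2 values and with a fold of 1.5 against 1. The combination against TP-16 gave 5 with only the compared groups in the fit and 6 with a fold of 1.5 against 3, and the combination against anti-PD-1 gave 3 with the methods' t-test against 8. Leaving out single arrays gave 3 to 7 for TP-16, 1 to 4 for anti-PD-1, 8 to 10 for the combination, 2 to 6 and 2 to 8 for the combination against TP-16 and anti-PD-1, and 0 to 3 for additivity. With 1 array left in a group, that array was assumed to vary like the others.

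A replicate block gave 8 after adjustment, with the same 8 genes, and 4, 1, 10, 3, 6 and 2 at the methods' threshold in the order TP-16, anti-PD-1, combination, combination against TP-16, combination against anti-PD-1 and additivity. The deviations of same-numbered arrays correlated at over 0.1 in 4 of 6 pairs of groups, with a range of -0.19 to 0.29, and since the labels name nothing shared and not every pair was over 0.1, the numbers were not taken to pair the arrays. For the probe that stands for each of the 8 genes that rose or fell, direction held in all alternatives, while of these genes Itga1, Itga11 and Itga4 each had another tested probe of opposite sign. The median log2 fold change of all genes was -0.22 in the main values, -0.05 with quantile normalization, -0.04 with the authors' log2 values and -0.3 with normexp, and small differences of Itga6, Itgb1, Itgb5, Lama5 and Lamc1 changed sign between these scalings, as did that of Itgb8. No member of the 8 was limited by background, since all were well above it on 8 arrays.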

Other observations

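Marker lists not set beside a member above were read in the combination against vehicle. Red cell genes fell in 4 of 4 tested, with sums of 182 to 276 in vehicle and 41.4 to 52.3 in the combination. Of 5 platelet markers 2 fell, Pf4 at -1.01 and Ppbp at -1.21, and 1 rose, Gp1ba, which was well above background on the 2 combination arrays alone and entered the test through them. Of 7 nerve markers 1 rose, Mbp at 1.77. Skeletal muscle, adipose tissue and cell division lists had 0 genes past adjustment in either direction, of 10, 6 and 6 tested.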
